A study of Homo sapiens with 8 samples.

Results

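The S100 calcium binding proteins were followed in HepG2 cells, a human line from a liver tumour, with and without overexpression of EDN1, the gene of the precursor of the secreted vasoconstrictor endothelin-1. The genes described are S100A14, which was selected on its measured difference between the groups in earlier results of the same libraries, and 8 further members chosen by family, S100A16, S100A13, S100A10, S100A11, S100A6, S100A4, S100P and S100A2. These 9 genes were taken by symbol from a table of 24462 genes, and all 9 were among the 12577 that passed the filter on low counts. RNA was sequenced from 4 libraries labelled mock and 4 labelled EDN1 O/E (overexpression), called here mock 1 to 4 and EDN1 1 to 4. All were HepG2 cells in the same culture medium, with no further treatment. The labels do not name the construct, its promoter or whether the cells are 1 clone, nor do they tell whether each library had its own culture. The p-values below therefore rest on the spread among these libraries, which may be technical.

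S100 proteins are small proteins built around EF-hand loops, which hold calcium. Most form dimers that open a binding face when calcium rises and then grip a target protein such as an annexin, a myosin heavy chain or ezrin. Some are also released from cells and act on surface receptors, among them the receptor for advanced glycation end products (AGER) and TLR4. In tumours of the liver and of other epithelia several members are studied for their link with motility and invasion.

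Of the 9 genes, 8 lie on chromosome 1 in the order S100A10, S100A11, S100A6, S100A4, S100A2, S100A16, S100A14 and S100A13, and S100P lies on chromosome 4. In the RefSeq annotation S100A13 overlaps S100A1 and CHTOP, and S100A4 overlaps S100A5 and an uncharacterised RNA gene. S100A6 overlaps another annotated gene, which has no row in the count table. Whether counting used strand is not stated in the sources used here, and reads of these overlapping genes may not be separated. The annotation also holds 10 pseudogenes of S100A11, of which 0 have a row in the count table, so the S100A11 values are uncertain to the extent that reads match those copies.

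Promoter sequences from RefSeq (GRCh38.p14) are shown for 4 members because their values followed different patterns over the libraries. They are S100A14, S100P, S100A4 and S100A6. Each run gives the 250 bases before the annotated transcript start, 5′ to 3′ on the gene's strand, and capitals mark matches on either strand to TATAA, the core of the TATA element, or to GGGCGG, the core of the GC box. The S100A14 promoter is at chr1:153616326-153616575, minus strand.
S100A14: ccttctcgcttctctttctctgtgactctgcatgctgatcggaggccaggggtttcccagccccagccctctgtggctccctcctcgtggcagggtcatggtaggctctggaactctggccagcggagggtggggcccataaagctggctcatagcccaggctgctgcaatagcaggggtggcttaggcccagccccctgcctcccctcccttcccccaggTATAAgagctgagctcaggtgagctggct
The S100P promoter is at chr4:6693628-6693877, plus strand.
S100P: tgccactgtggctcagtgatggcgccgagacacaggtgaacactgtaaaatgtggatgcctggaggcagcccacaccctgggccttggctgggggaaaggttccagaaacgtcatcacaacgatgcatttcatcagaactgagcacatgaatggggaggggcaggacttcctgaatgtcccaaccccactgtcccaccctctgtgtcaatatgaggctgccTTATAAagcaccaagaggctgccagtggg
The S100A4 promoter is at chr1:153545807-153546056, minus strand.
S100A4: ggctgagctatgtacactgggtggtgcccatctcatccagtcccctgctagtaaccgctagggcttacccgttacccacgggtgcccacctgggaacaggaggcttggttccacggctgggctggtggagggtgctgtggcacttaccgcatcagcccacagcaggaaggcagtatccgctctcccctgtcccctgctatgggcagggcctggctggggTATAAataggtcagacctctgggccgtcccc
The S100A6 promoter is at chr1:153535992-153536241, minus strand.
S100A6: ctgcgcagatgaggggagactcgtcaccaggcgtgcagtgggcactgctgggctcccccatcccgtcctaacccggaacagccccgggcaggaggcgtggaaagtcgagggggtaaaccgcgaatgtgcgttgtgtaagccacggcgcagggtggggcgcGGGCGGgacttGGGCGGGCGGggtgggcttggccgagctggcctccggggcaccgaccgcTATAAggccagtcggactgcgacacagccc
All 4 sequences hold TATAA close to the start, from 29 to 25 bases before it in S100A14, from 28 to 24 in S100P, from 31 to 27 in S100A4 and from 30 to 26 in S100A6. In S100P the match overlaps a match on the opposite strand. Over the 9 members, which have 13 annotated promoters in the table, 5 promoters (38.5%) of 5 members hold TATAA, beside 18.93% of 35116 promoters of the same length. GGGCGG was found in 5 of the 13 promoters (38.5%), 1 in each of 5 members, beside 42.64% of all promoters, with 3 matches in S100A6, of which the last pair overlap, and 0 in S100A14, S100P and S100A4. TGANTCA, the AP-1 element, was found in 1 of the 13 (7.69%), in S100A2, beside 6.573% of all promoters. These matches describe the letters only.

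The mock libraries held 8409173 to 14932385 counts each and the EDN1 libraries 8571252 to 11686180. The targeted gene EDN1 was at 1.04 to 2.26 CPM (counts divided by the library size scaled by TMM, the usual CPM unit) in mock and at 228, 259, 418 and 549 CPM in EDN1 1 to 4, so every library matched its label. Mock 4, EDN1 3 and EDN1 4 are called the second library set, since their counts stood apart in earlier results. The remaining 5 libraries are called the first. The division was not clean. By chi-square per degree of freedom (lower is closer), mock 4 and EDN1 4 were close, at 14.4. But EDN1 3 was closer to EDN1 1 (40.8) than to EDN1 4 (56.5), and mock 2 closer to EDN1 4 (37.7) than to mock 1 (52.1). No label gives a batch. For the 9 members, S100A1 and S100A3, fold changes within each set are given beside those over all 8 libraries. All 9 hepatocyte markers, among them ALB, AFP, APOB and HNF4A, had a mean of at least 10 CPM, with a sum of 5870 to 8024 CPM in mock and 5357 to 7545 CPM in EDN1 overexpression. Fibroblast markers summed to at most 8.81 CPM and endothelial markers to at most 0.924 CPM in any library, with THY1, LUM and KDR at 0. Of 7 immune markers, LYZ (351 to 793 CPM over the libraries) and CD68 (6.95 to 18.7 CPM) were above 10 CPM on average. With these 2 the immune list summed to 403 to 792 CPM in mock and 361 to 813 CPM in EDN1 overexpression. The other 5, PTPRC among them, summed to at most 2.59 CPM, with CD3E at 0. Of 6 keratinocyte markers KRT10 alone, at 123 to 193 CPM, exceeded 10 CPM. KRT5 was at 0 in all libraries, and the 5 without KRT10 summed to at most 0.965 CPM.

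HepG2 cells expressed the 9 members over a wide range. Per kilobase of the deposited gene length, S100P ranged from 797 to 2067 CPM per kilobase over the 8 libraries and S100A6 from 736 to 1307. S100A4 ranged from 49.9 to 300.2, S100A13 from 104 to 157, S100A16 from 69.6 to 161, S100A10 from 63.6 to 122 and S100A11 from 36.5 to 105 CPM per kilobase. S100A14 followed with 15.02 to 107.5 and S100A2 with 1.44 to 12.2 CPM per kilobase. By the mean over libraries this is also their order. But S100P exceeded S100A6 in 6 of 8 libraries, S100A4 exceeded S100A13 in 5 and S100A13 exceeded S100A16 in 3. The order of these neighbours thus changed between libraries, and differences between genes were not tested. S100A10 exceeded S100A11 in 5 libraries, while S100A16 exceeded S100A10, S100A6 exceeded S100A4 and S100A14 exceeded S100A2 in all 8. The kit reads tags near transcript ends, so division by length can overstate short genes. On plain CPM S100P lay below S100A6 in mock 1, EDN1 1, EDN1 2 and EDN1 3. On that scale S100A13 lay above S100A4 in 7 of 8 libraries, S100A16 above S100A4 in 6 and S100A14 above S100A11 in 3. S100P and S100A6 together held 59.6% to 78.8% of the reads of the 9 genes, which were 0.167% to 0.229% of all reads.

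S100A14, an S100 protein of epithelia whose second EF-hand is altered, was the member noted earlier, and its difference between the groups is given as a description with no test. It was at 15.9, 41.9, 23.6 and 39.7 CPM in mock 1 to 4 and at 32.8, 45.6, 50.3 and 114 CPM in EDN1 1 to 4. EDN1 2, EDN1 3 and EDN1 4 lay above every mock library, while EDN1 1 lay below mock 2 and mock 4, so the groups overlapped. The means were 30.3 ± 12.6 and 60.7 ± 36.3 CPM (SD, n = 4 each), a log2 fold change of 1.00 (SE 0.41). This value rested in good part on EDN1 4, without which it was 0.50, and it was 0.79 without mock 1. Within the first library set it was 0.54 (SE 0.36) and within the second 1.04 (SE 0.44), the latter with mock 4 as the lone mock library, assumed to vary like the EDN1 libraries. With the library set as a term it was 0.72 (SE 0.35), and S100A14 was then 0.86 higher (SE 0.35) on the log2 scale in the second set than in the first. Within the EDN1 group the 4 libraries took the same order in S100A14 as in EDN1 itself, as did 7.28% of all genes tested and 0 of the other 8 members. In 4.86% of all genes the highest EDN1 library also lay above every mock library, as in S100A14. This order was seen after the values, and since the libraries with most EDN1 are those of the second set, EDN1 level and library set cannot be told apart. In bulk RNA, fewer cells of a type and less RNA per cell cannot be told apart.

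**Figure D1:**
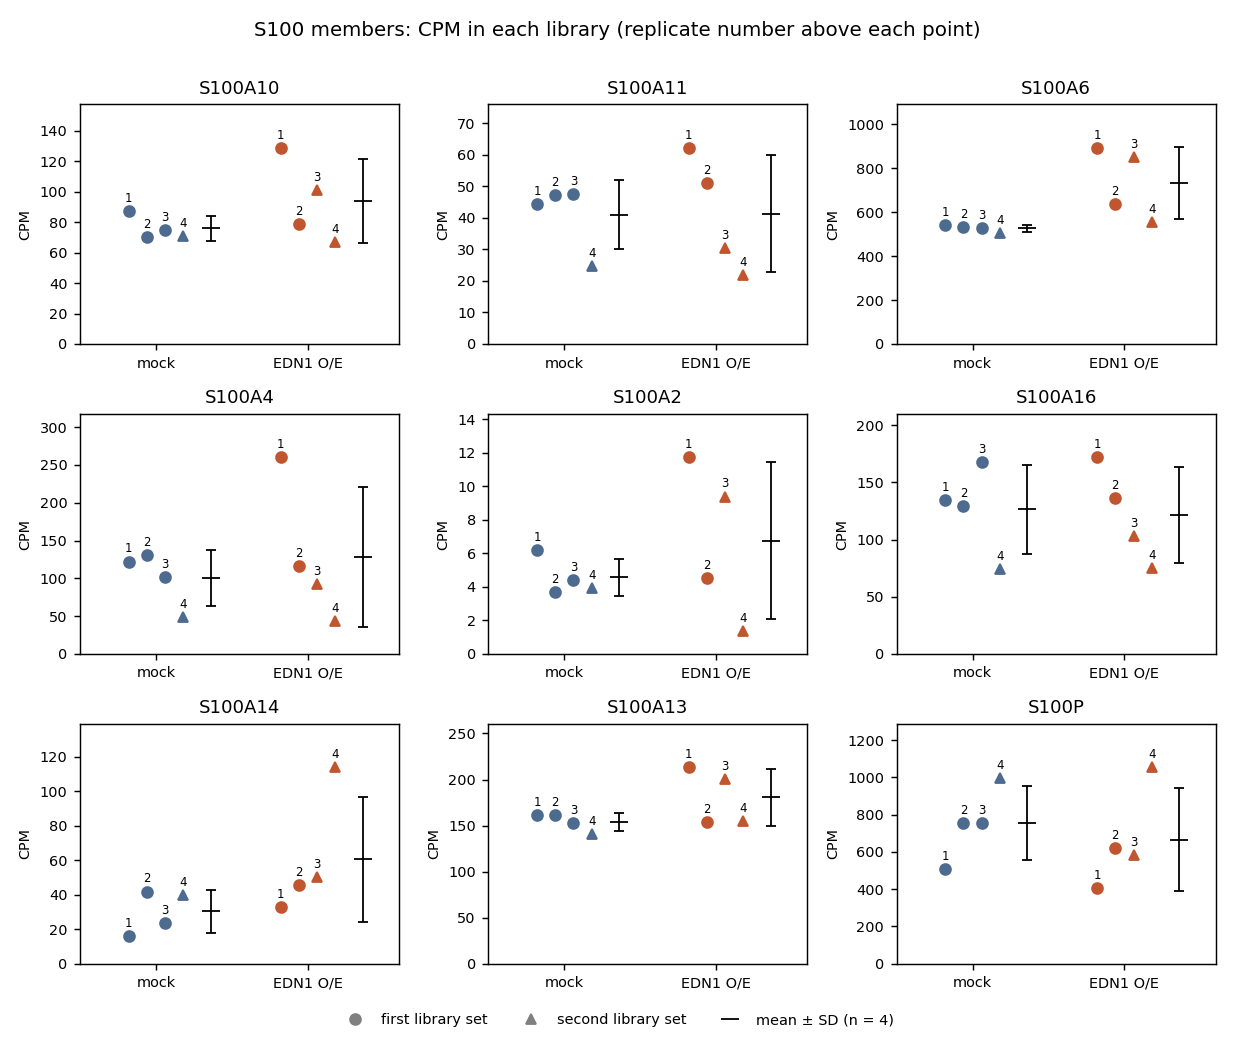
CPM (TMM-scaled) of each S100 member in each of the 8 libraries, 1 panel per gene with its own axis from 0. Points are libraries with their replicate number, shapes give the library set, and black marks give mean ± SD of 4 libraries. S100A14 peaks in EDN1 4 at 114 CPM and the groups of S100A6 do not overlap on this TMM scale (by library totals they do), while S100A11, S100A16 and S100A4 are low in the second set of either group.

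Of the other 8 members, 0 passed at an adjusted p under 0.05 by edgeR, with adjustment over all genes, where 0.00795% of the genes tested were called, that is EDN1 alone. DESeq2 and limma voom also called 0 of the 8. An unadjusted p under 0.05 was found for 1 of the 8, S100A6, with a positive fold change, in edgeR and in both other tools. That count was 0 without EDN1 1, without EDN1 3 and in the second library set alone, and 3 without EDN1 4. In edgeR 2.85% of all genes tested had such a p, and 2.03% had it with a positive fold change. Fold changes were positive in 7 of the 9 with S100A14 and in 6 of the 8 without it, beside 50.3% of all genes tested. The median log2 fold change of the 9 was 0.31 and that of the 8 was 0.27, beside 0.00 (0.0009891) over all genes. Without EDN1 1 the median of the 9 fell to 0.12, with 5 positive.

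S100A6, calcyclin, which binds annexins and the calcyclin binding protein CACYBP, was the member whose groups did not overlap on the TMM scale. Its levels were 542, 531, 529 and 503 CPM in mock 1 to 4 and 893, 637, 848 and 556 CPM in EDN1 1 to 4. The mock libraries lay within a narrow band, and EDN1 1 and EDN1 3 were far above it while EDN1 4 was just above its upper edge. Groups that did not overlap, with EDN1 overexpression higher, were found in 1.38% of all genes tested, and with EDN1 overexpression lower in 0.668%, with 0 members among the latter. Scaled by library totals instead, EDN1 4 (527 CPM) lay below mock 1 (557 CPM), so on that scale the groups overlapped. The means were 526 ± 16.6 and 734 ± 163 CPM (SD, n = 4 each), which is 0.48 on the log2 scale (SE 0.17, 95% interval 0.09 to 0.87). By edgeR the unadjusted p was 0.0198 and the adjusted p 0.99995, the value shared by all 8 members tested. In the first library set the log2 fold change was 0.52 (SE 0.19) and in the second 0.47 (SE 0.48), and over all libraries but 1 it ran from 0.37 without EDN1 1 to 0.59 without EDN1 4.

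S100A10, the member that holds its active shape without calcium and pairs with annexin A2, was at 87.6, 70.2, 75.1 and 70.8 CPM in mock and 129, 78.7, 101 and 67.1 CPM in EDN1 overexpression. EDN1 1 and EDN1 3 again lay above all mock libraries, and EDN1 4 below them. Its log2 fold change was 0.31 (SE 0.20, 95% interval -0.14 to 0.76), with 0.42 and 0.24 within the first and second sets, and 0.12 without EDN1 1. S100A13, which takes part in the release of FGF1 and IL1A from cells, was at 161, 161, 153 and 141 CPM in mock and 213, 153, 201 and 155 CPM in EDN1 overexpression. Here too EDN1 1 and EDN1 3 exceeded every mock library while EDN1 2 and EDN1 4 lay among them. The log2 fold change was 0.23 (SE 0.15, 95% interval -0.11 to 0.57), with 0.21 and 0.32 within the sets and 0.14 without EDN1 1. Neither gene passed the test (unadjusted p = 0.156 and 0.163 by edgeR).

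S100A2, a largely nuclear member, was the least expressed, with 12 to 144 counts per library. It was at 6.17, 3.71, 4.40 and 3.94 CPM in mock and at 11.7, 4.54, 9.38 and 1.39 CPM in EDN1 overexpression. The EDN1 group held both the highest and the lowest libraries. The log2 fold change of 0.58 (SE 0.50, 95% interval -0.53 to 1.68) was 0.91 without EDN1 4 and 0.18 without EDN1 1. Within the first and second library sets it was 0.77 and 0.45.

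S100A4, the metastasis-associated member that binds non-muscle myosin heavy chain, was at 122, 130, 101 and 48.9 CPM in mock and at 260, 117, 92.8 and 43.2 CPM in EDN1 overexpression. EDN1 1 held the highest value, EDN1 4 the lowest, and mock 4 was close to EDN1 4. The log2 fold change was 0.35 (SE 0.47, 95% interval -0.69 to 1.40), and it was -0.25 without EDN1 1, 0.12 without mock 4 and 0.64 without EDN1 4. S100A11, a partner of annexin A1, was at 44.3, 47.3, 47.5 and 24.6 CPM in mock and 62.2, 50.9, 30.5 and 21.7 CPM in EDN1 overexpression. S100A16, a widely expressed member with an unusual first EF-hand, was at 135, 129, 168 and 74.3 CPM in mock and 172, 137, 103 and 74.9 CPM in EDN1 overexpression. In both genes mock 4, EDN1 3 and EDN1 4 were the lowest libraries, whatever their group. The log2 fold changes were 0.02 (SE 0.33, 95% interval -0.70 to 0.74) for S100A11 and -0.06 (SE 0.29, 95% interval -0.69 to 0.58) for S100A16, and the sign of each changed with the setting. S100A16 had log2 fold changes of 0.10 in the first set and 0.25 in the second, and S100A11 of 0.29 and 0.08.

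S100P, first described in placenta and a partner of ezrin, was at 510, 757, 754 and 999 CPM in mock and at 407, 623, 582 and 1054 CPM in EDN1 overexpression. Mock 4 and EDN1 4 were the highest and EDN1 1 and mock 1 the lowest. The log2 fold change was -0.18 (SE 0.29, 95% interval -0.82 to 0.46), with -0.39 and -0.30 within the first and second sets, and 0.00 (-0.0033857) without EDN1 1. Leaving out mock 4 gave -0.015, mock 1 -0.33, EDN1 3 -0.12 and EDN1 4 -0.49. The ratio of S100P to S100A6 reads ran from 0.941 to 1.99 in mock and from 0.455 in EDN1 1 to 1.90 in EDN1 4. The sum of the 9 genes ran from 1624 to 1905 CPM in mock and from 1847 to 2180 CPM in EDN1 overexpression.

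**Figure D2:**
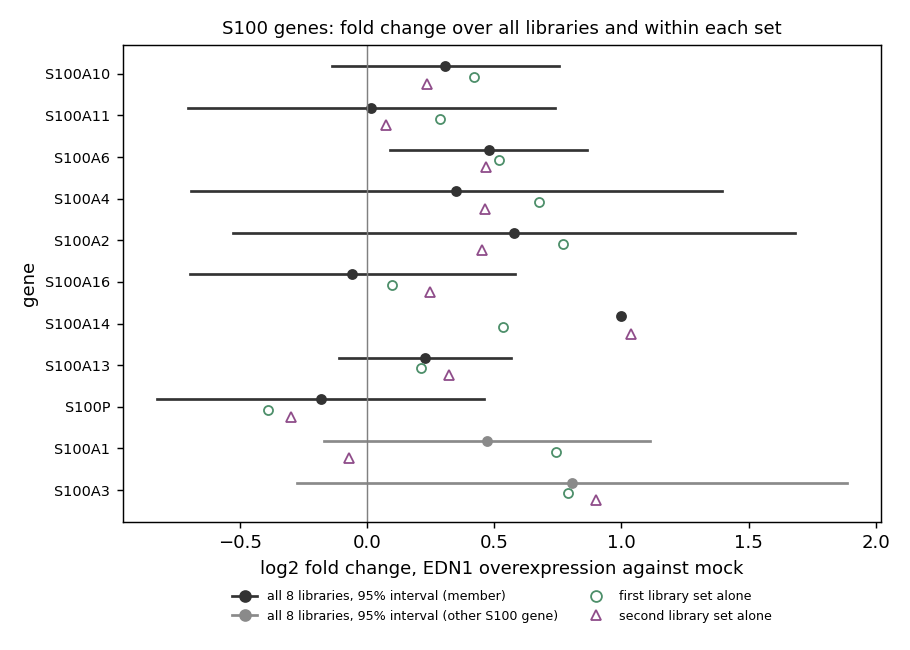
Log2 fold change of EDN1 overexpression against mock for the 9 members and for S100A1 and S100A3. Filled points are fits over 8 libraries with 95% intervals (none drawn for S100A14, which was chosen for its difference), and open symbols are fits within each library set. The interval of S100A6 alone lies above 0, while those of the other genes with an interval span it.

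The 9 genes were also compared by the library in which each was highest. Of the 9, 7 had their highest level in EDN1 1, a library that was the highest in 10.9% of all genes tested. The other two members, S100A14 and S100P, peaked in EDN1 4, which was the highest library in 17.5% of all genes. In S100A6, S100A10, S100A13 and S100A2, EDN1 1 and EDN1 3 were both above the other 6 libraries (4 of 9 members, beside 8.4% of all genes). These patterns were seen after the values. In the plot of centred levels S100A6, S100A13 and S100A10 run nearly in parallel, with root mean square differences of 0.14, 0.142 and 0.147 between the 3 pairs on the log2 scale, and so do S100A11 and S100A16, with 0.148. These were the smallest differences of all member pairs. Genes that vary little come out close by this measure, and S100A13 had an SD of 0.208 in log2 CPM over the libraries. Outside the family, EFHD2 lay nearer to S100A6, at 0.0527. All these genes share the 8 libraries and their scaling, so their likeness is a description.

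**Figure D3:**
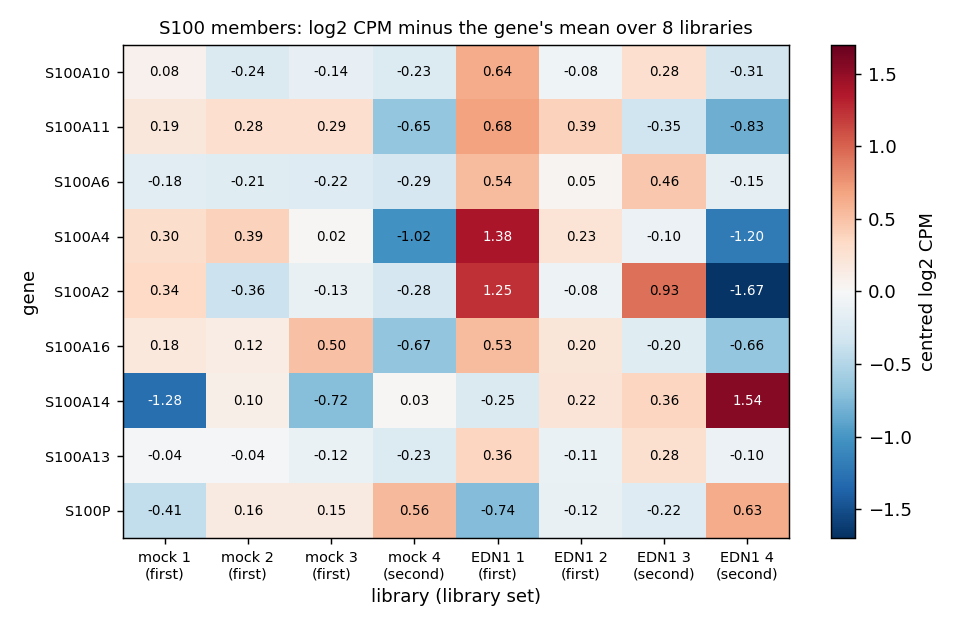
Log2 CPM (prior count 2) of each member minus its mean over the 8 libraries, with genes in chromosome order and S100P last. Red is above and blue below the gene's mean, and S100A14 and S100P have their deepest red in EDN1 4, where S100A4 and S100A2 have their deepest blue.

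The library sets divided 3 members completely. S100A4, S100A11 and S100A16 were each lower in all 3 libraries of the second set than in all 5 of the first, beside 13.4% of all genes tested, and 0 members were completely higher, beside 9.83%. The mean of S100A4 was 146 CPM over the first set against 61.6 CPM over the second, and the fit that also holds the group gave -1.38 (SE 0.31) on the log2 scale. The difference was -1.03 (SE 0.15) for S100A11 and -0.86 (SE 0.16) for S100A16. S100P was 0.63 (SE 0.24) higher on the log2 scale in the second set, with overlap. S100A6, S100A13 and S100A10 differed little between the sets, by -0.11 (SE 0.17), -0.10 (SE 0.15) and -0.23 (SE 0.20). The sets were formed from the counts of these libraries, so no test is given for these differences. With the set as a term the log2 difference between the groups was 0.61 (SE 0.28) for S100A4, 0.22 (SE 0.14) for S100A11, 0.16 (SE 0.15) for S100A16 and -0.35 (SE 0.23) for S100P, and again 0 of the 8 members passed.

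**Figure D4:**
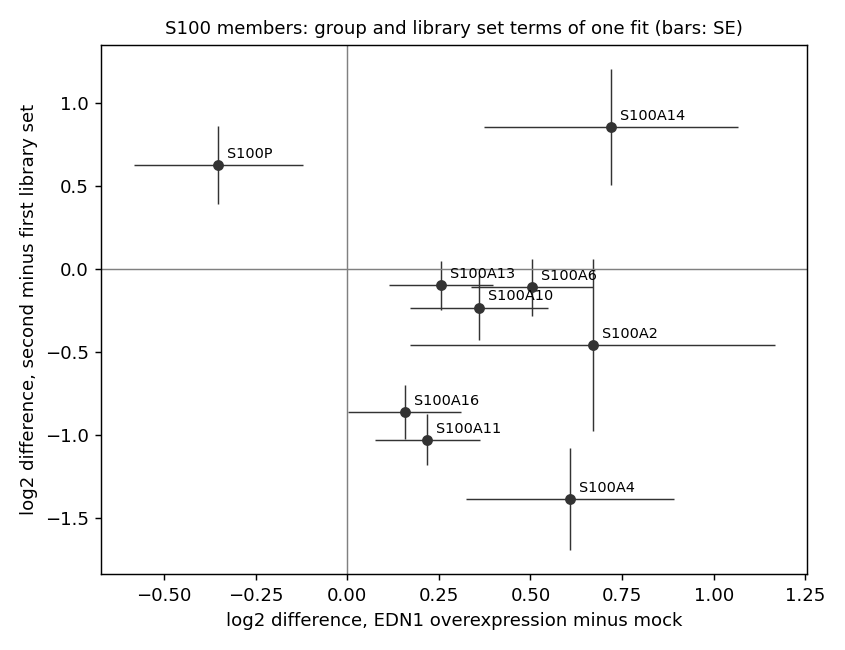
Log2 difference between the groups (horizontal axis) against that between the library sets (vertical axis) for each member, from 1 fit with both terms, with bars of 1 SE. S100A4, S100A11 and S100A16 lie lowest on the vertical axis, S100A14 is the member high on both axes, and S100P is the member left of 0.

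Of 19 other S100 and S100 fused-type genes listed, 2 were measured well enough to test, S100A1 and S100A3, and neither passed. S100A3, which neighbours S100A4 and is known from hair cuticle, was at 44.8, 16.8, 28.5 and 26.4 CPM in mock and 75.6, 28.7, 84.4 and 15.1 CPM in EDN1 overexpression, which gave 0.81 on the log2 scale (SE 0.49, 95% interval -0.27 to 1.89), with 0.45 without EDN1 3 and 1.11 without EDN1 4. S100A1, a muscle and brain member that overlaps S100A13, was at 3.90, 7.78, 5.68 and 9.33 CPM in mock and 9.84, 9.30, 11.4 and 6.47 CPM in EDN1 overexpression, which gave 0.47 (SE 0.29, 95% interval -0.17 to 1.11), with 0.28 without mock 1 and 0.69 without mock 4. In both genes EDN1 1 and EDN1 3 were the top pair of libraries, as in 8.4% of all genes tested, a pattern seen after the values. In S100A1 EDN1 1 was only just above mock 4 (9.84 against 9.33 CPM), and its reads may not be separated from those of S100A13. The other 17 did not reach the filter. S100A8 and S100A12, calgranulins of myeloid cells, had 0 counts in all libraries, S100A9 had 1 to 7 while S100B, of glial cells, had no more than 1. Where 0 was counted the upper limit is 3 counts, or 0.207 to 0.371 CPM depending on the library, for counting error only.

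Partners of S100 proteins were compared as a list of 24 genes, of which 15 were tested. Fold changes were positive in 7 and negative in 8, with a median of -0.01 (-0.0060829), and 0 passed in either direction or had an unadjusted p under 0.05 by edgeR. Those with the highest mean CPM were MYH9, the myosin heavy chain bound by S100A4, at 312 and 310 CPM in mock and EDN1 overexpression, MDM2 at 305 and 299, SUGT1 at 158 and 167, EZR (ezrin) at 162 and 151 and the annexin gene ANXA6 at 110 and 105 CPM. Of the 15 partners tested, 5 were lower in all libraries of the second set than in all of the first, beside 13.4% of all genes tested. ANXA6 was among them, with a log2 difference of -1.17 (SE 0.16) between the sets. Another 2 partners were higher, beside 9.83%. The receptor genes were near the limit of detection, with 5 to 13 counts per library for AGER and 0 to 13 for TLR4. ANXA1 had at most 6 counts, FGF1 at most 2 and IL1A at most 6.

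Other EF-hand genes, 30 in the list, had 24 tested members with 18 positive and 6 negative fold changes, a median of 0.07 and 0 passing. Positive fold changes were thus 75% of this list, as of the 8 S100 members other than S100A14, beside 50.3% of all genes tested. At an unadjusted p under 0.05 by edgeR there was 1 of the 24, EFHD2, a calcium-regulated actin binder, beside 2.85% of all genes tested. Those with the highest mean CPM were the calmodulin gene CALM3, at 612 and 828 CPM in mock and EDN1 overexpression, the myosin light chain gene MYL12B at 596 and 606, CALM2 at 606 and 555, SDF4 at 483 and 579 and the centrin gene CETN3 at 308 and 317 CPM. Of the 24, 5 were higher in all 3 libraries of the second set than in all 5 of the first, CALM3 and SDF4 among them, and 2 were lower, CALM2 among them, beside 9.83% and 13.4% of all genes tested.

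Genes that flank the S100 members on chromosome 1 were taken as the 10 nearest protein-coding genes on each side. Of these, 14 were tested at any level, with 7 positive and 7 negative fold changes. The 8 with at least 10 CPM had 2 positive and 6 negative fold changes, a median log2 fold change of -0.15 and 0 passing. MRPL9, a mitochondrial ribosomal protein gene on the S100A10 side, had a log2 fold change of -0.14 (SE 0.25). On the S100A13 side CHTOP, an mRNA export factor gene, had -0.15 (SE 0.16), SNAPIN, of vesicle fusion, 0.47 (SE 0.24) and ILF2, of RNA binding, -0.31 (SE 0.23). Whether the members differ from these neighbours was not tested.

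The genes nearest to S100A14 in their course over the 8 libraries, by the root mean square difference of centred log2 CPM among 8696 genes with at least 10 CPM, were ITIH5 (0.31), TUBA4A (0.32) and SLC25A29 (0.35). ITIH5 averaged 8.70 and 14.9 CPM in mock and EDN1 overexpression, TUBA4A 33.3 and 47.9 CPM and SLC25A29 12.5 and 20.7 CPM. Each had its highest level in EDN1 4. These genes were sought by their likeness to S100A14, so the shared peak and the higher means in EDN1 overexpression follow from the choice. No family member was among these nearest genes.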

How the data were processed

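Per the labels' protocols, libraries were made with LEXOGEN Quant-Seq, which reads tags near transcript ends. The authors deposited a table of raw read counts for each gene, with 1 column per library and a gene length in bases, used here as deposited. The submitters' processing notes name Bowtie2, edgeR and the build hg19. For versions, counting tool, filters and strand the sources used here give nothing. Sample titles gave groups and replicate numbers.

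Rows sharing a symbol (288 symbols among 25737 rows) were added up, apart from MARCH1 and MARCH2, which left 24462 genes. The filter filterByExpr (minimum count 10) kept 12577, which were TMM-scaled and fitted by group in edgeR 4.0.16 under R 4.3.3 with its quasi-likelihood test. Calls needed a Benjamini-Hochberg adjusted p under 0.05. An SE is the log2 fold change over the root of F, and intervals are 95%. Scripts were tested on simulated data. No pair of libraries agreed within sampling noise (chi-square per degree of freedom at least 6.21 and at most 87.4).

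Members, gene lists and library sets were chosen with earlier results of these data known. Named genes were the 9 members, EDN1, other S100 genes of at least 1 CPM, the 5 genes of highest CPM in each list, up to 3 flanking genes per side of at least 10 CPM and the 3 genes nearest to S100A14. EFHD2, TMEM41A, DAG1 and genes of very low count were named after their values were seen. Promoters and gene neighbours came from RefSeq tables, matched by symbol for all 9 members, on a later build than hg19. Alternatives were other scalings and filters, DESeq2 1.42.0, limma voom (limma 3.58.1), the replicate number as a block, the library set, and leaving out each library.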

Additional observations from a re-analysis of the deposited data

Results flagged for a closer look

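S100A11 in mock 4 was at 24.6 CPM, far below the other mock libraries, of which the nearest was at 44.3 CPM. The gap was 0.861 of the range of the group, above Dixon's 95% critical value for 4 samples. It was 1 flag in 24 groups examined, where chance flags about 1 in 20. The EDN1 libraries of the same set were also low, at 30.5 and 21.7 CPM.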

How the results depend on the processing

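Under the 11 alternatives that kept or divided the libraries, 0 of the 8 members other than S100A14 passed, and the smallest adjusted p of any of them under any setting was 0.803 (edgeR's quasi-likelihood test, without EDN1 4). The number of genes called over all genes was 1 under each of these except DESeq2, which called 3, and 1 without each library in turn. The median log2 fold change of the 9 members ran from 0.22 (limma voom) to 0.42 (first set alone), and from 0.12 to 0.44 when libraries were left out. These medians include S100A14, which was chosen for its difference. The median of the 8 without it, 0.27 in the main fit, is not given under these settings. Signs changed for S100A11 with limma voom (-0.030) and with the replicate block (-0.050), for S100A16 with the library set as a term (0.16), in the first set (0.10) and in the second set (0.25), and for S100A1 in the second set (-0.069). Leaving out libraries gave ranges of -0.27 to 0.12 for S100A16, -0.25 to 0.23 for S100A11, -0.25 to 0.64 for S100A4 and 0.50 to 1.21 for S100A14. The cause was not tested. As a block, the replicate number, which pairs no samples by the labels, left 1 gene and 0 members called, with S100A14 at a log2 fold change of 0.95. Deviations of same-numbered libraries correlated at 0.477, 0.151, -0.149 and 0.528, and for 2 of the 4 numbers the closest library was the one of the same number. Library totals in place of TMM-scaled sizes changed member levels by factors of 0.948 to 1.05, with which the groups of S100A6 overlapped. Counts of S100A2, as low as 12 in a library, limit its precision.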

Other observations

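Among genes with at least 10 CPM, the one nearest to S100A6 over the 8 libraries was another EF-hand gene, EFHD2, with a root mean square difference of 0.0527 in centred log2 CPM. The next nearest were TMEM41A (0.0797) and DAG1 (0.0901). EFHD2 was at 46.1 to 47.7 CPM in the mock libraries and at 75.0, 56.6, 70.5 and 46.7 CPM in EDN1 1 to 4, so EDN1 1 and EDN1 3 were its highest libraries too, as in S100A6. EFHD2 was sought by its likeness to S100A6 after the values were seen, so the shared top libraries follow from the choice.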
